A study of Mus musculus with 248 samples.

Results

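The 47 genes described here code for proteins that carry a cell through mitosis. They were listed by symbol under 9 roles, and a listed gene was a member where its Ensembl identifier stood in both deposited expression tables. All 47 were found, of 18508 genes in the table of the training cohort, 13607 in that of the validation cohort and 13232 in both. The rule used no difference between groups, but the list itself was written with earlier results of these data known. The authors' filter on low genes does bear on the counts. All 47 passed it on Ctrl libraries alone in the training cohort, but only 26 did in the validation cohort, and the other 21, Cdk1, Ccnb1, Plk1, Bub1 and Kif18b among them, passed through CM libraries. Counts or medians over those 26 are given as well where they were taken.

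Bulk RNA of peripheral blood, labelled PBMC, was sequenced repeatedly from C57BL/6 mice of a leukemia model. CM mice (genotype code CHW) carried Cbfb+/56M, a conditional knock-in of the Cbfb-MYH11 fusion gene of acute myeloid leukemia, together with Mx1-Cre, a recombinase under an interferon-responsive promoter that acts in blood-forming cells and also in other tissues. Ctrl mice were littermates that carried Cbfb+/56M alone, Mx1-Cre alone or neither. Mice of both arms, females and males, had been given poly(I:C), a double-stranded RNA that switches Mx1-Cre on, at 14 mg/kg in 7 doses, starting at an age of 4 to 8 weeks. The training cohort had 7 CM mice (55 libraries) and 7 Ctrl mice (77 libraries), sampled before induction (T0) and for up to 10 months. The validation cohort had 13 CM mice (68 libraries) and 8 Ctrl mice (48 libraries), sampled at T0, monthly to T6 or by week, and in leukemia (L), which the submitters describe by over 20% cKit+ blasts. Each replicate is a separate mouse, so p-values measure the spread between mice.

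CDK1 with its A- and B-type cyclins drives a cell into mitosis, and aurora and polo kinases build the spindle and correct its attachments. Kinetochore complexes hold the chromosomes to the spindle, kinesins move them, and the spindle checkpoint delays anaphase until every chromosome is attached. Most of these genes are transcribed late in the cell cycle. Mature blood cells are mostly at rest, so such transcripts mark the dividing cells in blood, for example immature red cells, activated lymphocytes or blasts.

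Library totals were 15996368 to 36259517 reads in the training cohort and 8682789 to 34413068 reads in the validation cohort. T cell, B cell and neutrophil markers were present in every group, and so were red cell transcripts. Globin genes took a median of 0.69% of reads in Ctrl T1 libraries of the training cohort, against 29.9% in Ctrl T6 and 31.2% in Ctrl T10 libraries, which lowers the log2 CPM of other genes there. Sex-linked RNA went against the sex label in 8 validation libraries (labelled female with Ddx3y above 2 or Xist below 4 log2 CPM, or labelled male with Xist above 4) and in 0 training libraries. These were libraries of CM mice 2731 (T0, T2 and L), 2718 (T0) and 2690 (T1 and T2), and of Ctrl mice 2705 (T0) and 2689 (T6). The T0 library of mouse 2731, labelled female, held the Y-linked Ddx3y at 5.21 log2 CPM and Xist at 1.24. Counts that rest on these libraries are also given without them where they differ. By the labels each time point from T0 to T6 and L of the validation cohort was a sequencing run batch of its own (T0 in batch B, T1 in C, L in A). Time and run batch therefore cannot be told apart in its comparisons with own T0 or T1. Weekly libraries all shared batch I. CM and Ctrl libraries of a month shared their batch. In bulk RNA, more cells of a type and more RNA per cell cannot be told apart.

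Before induction no member differed between the arms beyond the threshold (limma, adjusted p under 0.05 over all genes). At T0 0.0054% of all genes were called higher in the training cohort and 0% in the validation cohort. No member was higher at an unadjusted p under 0.05 either, and none was called by voom, which weights values by their precision. The median log2 fold change over members was -0.01 and -0.09. A summary per library, the median log2 CPM over the 47 members, had a lowest, median and highest value of 0.55, 1.0 and 1.25 in CM and 0.58, 0.84 and 1.23 in Ctrl mice of the training cohort. In the validation cohort these values were 1.52, 1.84 and 2.54 in CM and 1.63, 1.96 and 2.36 in Ctrl mice.

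**Figure D1:**
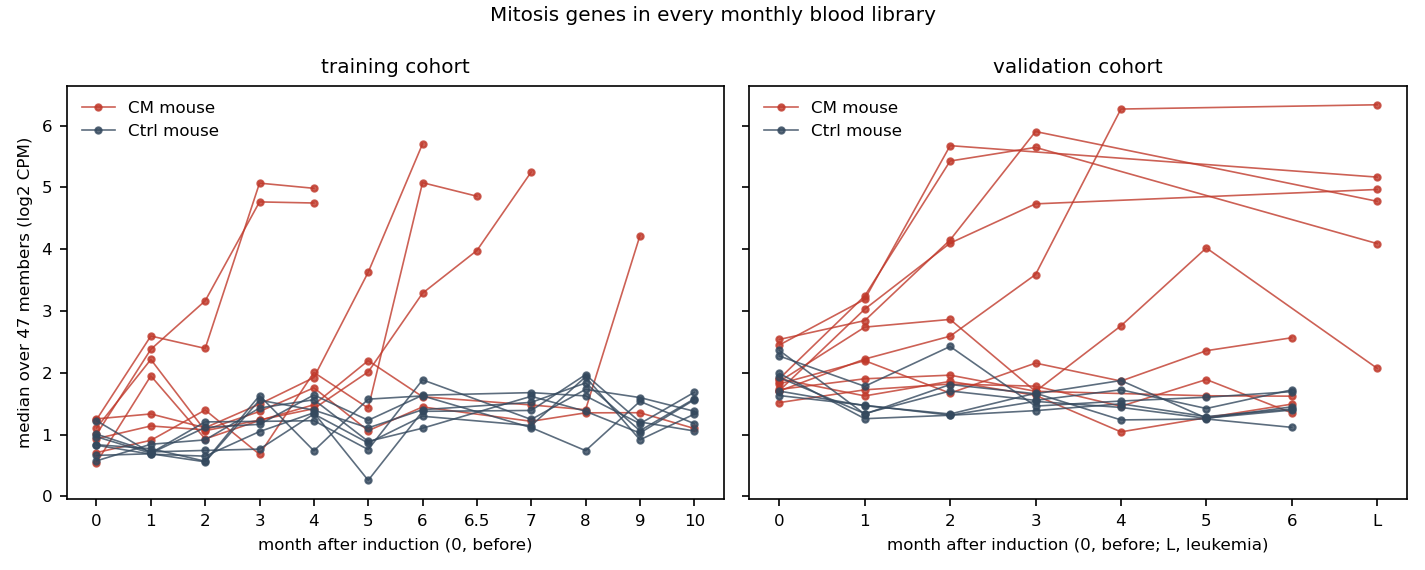
Median log2 CPM over the 47 mitosis genes (y axis) in each monthly blood library (x axis, months after induction, L for leukemia), with lines joining the libraries of a mouse, CM in red and Ctrl in dark blue. Ctrl libraries stay between 0.26 and 2.43, whereas some CM mice reach up to 5.7 (training) and 6.34 (validation), in different months. CM mice 3368 of the training and 2685, 2700 and 2709 of the validation cohort have no value above 1.96.

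At month 1 many mitosis genes were already higher in CM blood and others were not. In the training cohort 17 of 47 members rose and none fell, against 3.68% of all genes called higher and 248 of 18508 called lower. In the validation cohort 29 rose and 1 fell, against 7.95% of all genes called higher and 20.6% called lower. Of the 26 members that pass the filter on Ctrl libraries alone, 15 rose and 1 fell. All 17 genes of the training cohort were among the 29 of the validation cohort, which is 100% of the shorter and 58.6% of the longer list, but 8 of the 17 had passed the validation filter through CM libraries. The other 9 were all among the 15, which is 60% of these. Those 8 were Birc5, Ccnb2, Cenpf, Hmmr, Kif18b, Kif2c, Kif4 and Melk. Of the rest of the 29, Bub1, Cdc25c, Nek2, Nuf2, Spc24 and Ttk had also passed through CM libraries. The validation rises of all these genes, given below, are tied to that filter. The median over members was 1.1 and 1.14 on the log2 scale, against -0.18 and -0.09 over all genes, and 0.78 over the 26 members in the validation cohort. Without the validation libraries that went against their sex label 26 members rose and 1 fell.

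The median over members, taken per library, was 0.91, 1.95 and 2.6 log2 CPM (lowest, median, highest) in CM and 0.68, 0.7 and 0.84 in Ctrl mice of the training cohort at month 1, so the arms did not overlap. For the validation cohort it was 1.63, 2.48 and 3.24 in CM and 1.26, 1.4 and 1.78 in Ctrl mice, where the lowest CM value lay within the Ctrl range.

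Among the genes of mitotic entry, Ccna2, the A-type cyclin that pairs with CDK1 and CDK2, moved most in the training cohort. Ccna2 stood at 1.48, 3.42 and 4.98 log2 CPM (lowest, median, highest) in CM and at 0.06, 0.25 and 0.77 in Ctrl mice of that cohort. Every CM mouse was above every Ctrl mouse, and the log2 fold change was 2.84 ± 0.41 (SE, adjusted p = 0.00143, limma). Validation mice had Ccna2 at 2.04, 4.12 and 4.66 in CM and 1.07, 1.42 and 1.95 in Ctrl, again without overlap (log2 fold change 2.24 ± 0.39, adjusted p = 0.00416, limma). The B-type cyclin gene Ccnb2 rose in both cohorts, by 1.57 and 1.39. Ccnb1 had fold changes of 0.83 and 1.06 and Cdk1 of 1.12 and 1.79, none of them called. Foxm1, a transcription factor of the G2 phase, had -0.1 and -0.04.

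The mitotic kinases were divided too. Melk, a kinase of proliferating progenitors, rose by 1.5 and 1.23, and Birc5, which codes for survivin in the aurora B complex, rose by 1.41 and 1.88. Aurora B itself (Aurkb) stood at 1.11, 2.09 and 2.98 log2 CPM in CM and at 1.71, 2.19 and 2.5 in Ctrl mice of the training cohort, with overlap. Its log2 fold change was -0.18 ± 0.24 (adjusted p = 0.629, limma), and 0.02 with median-ratio scaling, so no direction can be given. Validation mice had Aurkb at 1.86, 2.66 and 3.25 in CM and 1.69, 1.97 and 2.5 in Ctrl (0.48 ± 0.22, adjusted p = 0.116). Aurka, the aurora kinase of the spindle poles, had 0.12 and 0.2, and Plk1, a polo kinase, had 0.56 and 0.86. Nek2, a centrosome kinase, had 1.1 in the training cohort, not called, and rose by 0.94 in the validation cohort.

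Of the 4 spindle checkpoint genes none was called in the training cohort (limma), whereas in the validation cohort Bub1, Bub1b and Ttk rose and Mad2l1 had -0.06. Bub1b codes for BubR1, which holds the anaphase-promoting complex back. It stood at 2.75, 3.48 and 4.02 log2 CPM in CM and at 2.62, 2.86 and 2.9 in Ctrl mice of the training cohort, with overlap (log2 fold change 0.59 ± 0.2, adjusted p = 0.106, limma). Validation mice had Bub1b at 3.42, 4.36 and 4.81 in CM and 3.08, 3.29 and 3.62 in Ctrl (0.93 ± 0.22, adjusted p = 0.00925, limma). All 10 CM mice lay above the Ctrl mean there. Bub1, the checkpoint kinase, had 1.89 ± 0.66 in the training cohort, where it was not called, and rose by 2.51 ± 0.64 in the validation cohort; 1.23 was the rise of Ttk.

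Ube2c, the ubiquitin-conjugating enzyme that works with the anaphase-promoting complex, was among the leaders. It stood at 3.72, 4.6 and 6.85 log2 CPM in CM and at 1.47, 2.48 and 3.31 in Ctrl mice of the training cohort, without overlap (log2 fold change 2.63 ± 0.5, adjusted p = 0.0078, limma). Validation mice had Ube2c at 3.16, 4.38 and 5.47 in CM and 2.11, 2.49 and 3.44 in Ctrl, with overlap (1.69 ± 0.34, adjusted p = 0.00522). Cdc20, an activator of the same complex, had 0.42 and 0.26 and was called in neither cohort. Espl1, which codes for separase, had 1.23 in the training cohort, not called, and rose by 1.46 in the validation cohort.

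Kinetochore genes were mixed. Cenpf and Cenpk rose in both cohorts (Cenpf by 1.6 and 1.83, Cenpk by 1.44 and 1.05), and Cenpe, Nuf2 and Spc24 rose in the validation cohort, by 0.92, 1.97 and 1.14. Of these, Cenpf, Nuf2 and Spc24 had passed the validation filter through CM libraries. Cenpa, the histone H3 variant that marks centromeres, went the other way. It stood at 4.34, 5.06 and 5.47 log2 CPM in CM and at 4.78, 5.52 and 5.82 in Ctrl mice of the training cohort (log2 fold change -0.5 ± 0.21, adjusted p = 0.181, limma). Validation mice had Cenpa at 4.53, 4.87 and 5.01 in CM and 4.69, 5.2 and 5.38 in Ctrl, and it fell by 0.35 ± 0.1 (adjusted p = 0.0231, limma), with all 10 CM mice below the Ctrl mean, though with median-ratio scaling it was not called. Ndc80, the microtubule-binding kinetochore subunit, had -0.33 and -0.26, not called.

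Kinesins showed a wide range. Kif18b, a motor that trims microtubule ends, rose by 2.44 ± 0.41 and 2.63 ± 0.59. Kif11, which slides the spindle poles apart, Kif2c and Kif4 also rose in both cohorts. Kif23, the motor of the centralspindlin complex in cytokinesis, stood at 3.52, 3.89 and 4.03 log2 CPM in CM and at 3.84, 4.35 and 5.77 in Ctrl mice of the training cohort (log2 fold change -0.68 ± 0.27, adjusted p = 0.17, limma). Validation mice had Kif23 at 3.43, 4.02 and 4.33 in CM and 3.89, 4.38 and 4.6 in Ctrl (-0.32 ± 0.15, adjusted p = 0.111). None of the 7 CM mice of the training cohort was above the Ctrl mean for Kif23, though the arms overlapped.

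Nusap1, a microtubule-bundling protein of the spindle, stood at 3.8, 4.75 and 6.85 log2 CPM in CM and at 1.42, 2.44 and 3.36 in Ctrl mice of the training cohort, without overlap (log2 fold change 2.61 ± 0.48, adjusted p = 0.00611, limma). Validation mice had Nusap1 at 4.34, 5.78 and 6.17 in CM and 3.3, 3.67 and 4.78 in Ctrl, with overlap (1.66 ± 0.3, adjusted p = 0.00416). Hmmr and Tpx2, which help to assemble spindle microtubules, rose in both cohorts, by 2.16 and 2.02 and by 1.9 and 1.46. Dlgap5, another spindle assembly factor, had 0.08 and 0.22.

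Among the cytokinesis genes, Anln, which codes for the furrow scaffold anillin, rose in the validation cohort by 1.32. Racgap1, the partner of KIF23 in centralspindlin, stood at 3.92, 4.56 and 4.99 log2 CPM in CM and at 4.24, 4.63 and 4.95 in Ctrl mice of the training cohort, and its log2 fold change was -0.14 ± 0.18, or 0.06 with median-ratio scaling. Validation mice had Racgap1 at 4.61, 5.07 and 5.55 in CM and 4.87, 5.05 and 5.13 in Ctrl (0.09 ± 0.12). Neither difference was larger than the spread between mice (adjusted p = 0.605 and 0.593, limma).

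All 3 genes of chromosome structure and cohesion rose in both cohorts. Mki67, which codes for the proliferation marker Ki-67 on mitotic chromosomes, stood at 4.32, 6.11 and 7.47 log2 CPM in CM and at 3.26, 3.73 and 4.21 in Ctrl mice of the training cohort, without overlap (log2 fold change 2.29 ± 0.39, adjusted p = 0.00343, limma). Validation mice had Mki67 at 4.27, 6.13 and 7.09 in CM and 4.1, 4.26 and 5.06 in Ctrl, with overlap at the low end (1.46 ± 0.39, adjusted p = 0.015). Esco2, an acetyltransferase that makes sister chromatids cohere, had the largest change of the training cohort, at 3.43 ± 0.48 (adjusted p = 0.0012), and rose by 2.39 ± 0.41 in the validation cohort. Top2a, the topoisomerase that untangles chromosomes, rose by 1.23 and 1.47.

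**Figure D2:**
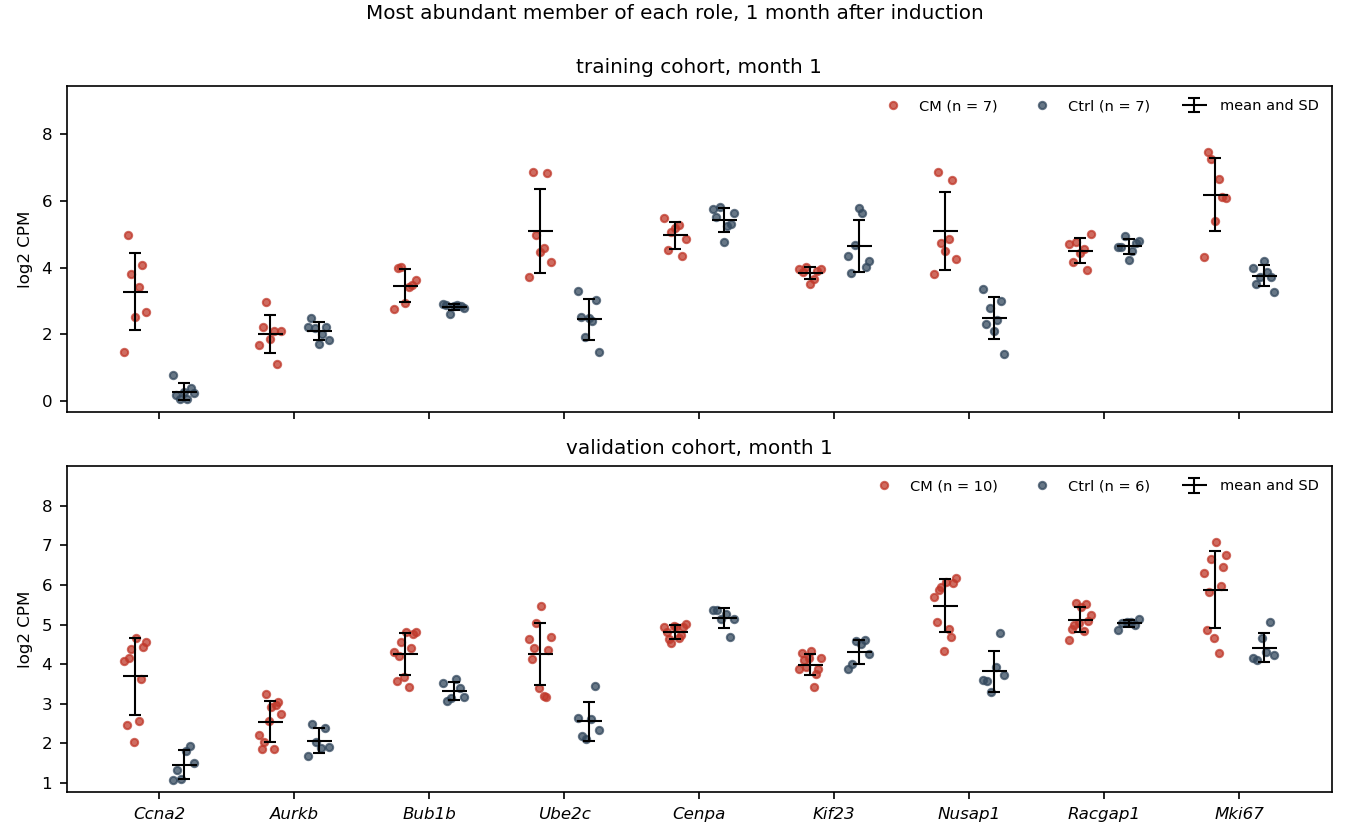
Log2 CPM (y axis) at month 1 of the member with the highest mean level in each of the 9 roles (x axis), 1 point per mouse, CM in red at the left and Ctrl in dark blue at the right, with mean and SD in black, for the training cohort above (n = 7 and 7) and the validation cohort below (n = 10 and 6). In the training panel Ccna2, Ube2c, Nusap1 and Mki67 stand higher in CM mice without overlap, while in the validation panel the arms are apart for Ccna2 alone. Cenpa overlaps in both panels and was called lower in CM mice of the validation cohort.

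Markers of other cells moved at month 1 as well. Of 11 erythroid markers, 10 rose in the training cohort and 11 in the other, and none fell. Their summed level was 3658 to 34980 CPM in CM and 958.1 to 2931 CPM in Ctrl mice of the training cohort, and 3094 to 10540 CPM in CM and 1233 to 3517 CPM in Ctrl mice of the validation cohort. Of the mast cell and basophil markers 5 of 8 and 6 of 7 rose, and of 10 stem and progenitor markers 4 and 6 rose and 1 fell in each cohort. No marker of these lists was at 0 reads through a whole group. Klf1, the transcription factor of red cell precursors, stood at -0.86, 1.96 and 4.09 log2 CPM in CM and at -6.52 (0 reads), -4.11 and -2.5 in Ctrl mice of the training cohort. Kit, the receptor on progenitors and blasts, stood at 3.14, 4.2 and 4.62 in CM and at 1.07, 1.8 and 4.95 in Ctrl mice of that cohort. The part of such cells in the rise of the mitosis genes was not tested.

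The month 1 counts depended on the fit. With all months fitted together and the mouse as a replicate block, 7 members were called higher in the training cohort, against 2.11% of all genes in that fit, and 5 when the library group was added, against 1.9%. In the validation cohort 7 were called, against 2.48% of all genes. Leaving out Ctrl mouse 3349 or 3350 left 7 in the training cohort, leaving out CM mouse 3370 left 8, and leaving out CM mouse 3368 left 11. The change from T0 to T1 was also compared between the arms (limma). It was larger in CM mice for 6 members of the training cohort, Esco2, Ccna2, Nusap1, Ube2c, Mki67 and Nek2, where 1% of all genes were called higher. In the validation cohort it was larger for 24 members, against 3.76% of all genes, with Bub1 at 3.01, Kif18b at 2.89 and Kif2c at 2.57, which all passed the filter through CM libraries. Of the 26 members that pass on Ctrl libraries alone, 13 were called there, led by Esco2 at 2.55, Ccna2 at 2.36 and Ube2c at 1.96. Without the libraries that went against their sex label only 7 members were called, against 1.07% of all genes.

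Ctrl mice themselves differed between T1 and T0 in the validation cohort, where the time points were also separate run batches. There 18 members fell and 1 rose at T1 against own T0 (limma), where 7.58% of all genes fell and 25.7% rose, and of the 26 members 10 fell and 1 rose. Cdc25c, a phosphatase that activates CDK1, fell by 2.21, Bub1 by 1.58 and Cenpk by 1.56, while Cdc20 rose by 0.45. Without mouse 2705, whose T0 library went against its sex label, 14 members fell and 0 rose. In the training cohort no member was called in Ctrl T1 libraries against own T0 (limma; 0 were higher before adjustment, at p under 0.05, and voom called 0), where 0% of all genes were called higher.

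The promoters of these genes share sequence that the choice of members did not use. RefSeq promoters (GRCm38.p6, 250 bases before to 50 after the transcription start) were found for 38 of the 47. Genes transcribed late in the cell cycle are known for the CHR element, searched here as TTTGAA on both strands, and for CCAAT boxes, searched as CCAAT on both strands. TTTGAA lay within 50 bases of the start in 25 of 38 member promoters (65.8%), against 4.92% of 27025 promoters, 1 per gene. At least 1 CCAAT was present in 28 of 38 (73.7%), against 37.9% of all promoters, and both motifs in 22 (57.9%), against 7.12%. Of the 14 promoters of members that rose at month 1 in both cohorts, 8 held TTTGAA near the start and 10 held CCAAT. Of the 14 of members that rose in neither, 11 held TTTGAA near the start and 11 held CCAAT.

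Printed here are the promoters of 2 genes that rose at month 1 in both cohorts, Ube2c (chr2:164769679-164769978, plus strand) and Top2a (chr11:99024140-99024439, minus strand), and of 2 that rose in neither, Cenpa (chr5:30666636-30666935, plus strand) and Kif23 (chr9:61946750-61947049, minus strand). They run 5′ to 3′ in the direction of the gene. Capitals mark CCAAT or its reverse complement ATTGG, and TTTGAA or its reverse complement TTCAAA, and neighbouring matches can share letters. A match is a description of the letters, not a site shown to be bound.
Ube2c: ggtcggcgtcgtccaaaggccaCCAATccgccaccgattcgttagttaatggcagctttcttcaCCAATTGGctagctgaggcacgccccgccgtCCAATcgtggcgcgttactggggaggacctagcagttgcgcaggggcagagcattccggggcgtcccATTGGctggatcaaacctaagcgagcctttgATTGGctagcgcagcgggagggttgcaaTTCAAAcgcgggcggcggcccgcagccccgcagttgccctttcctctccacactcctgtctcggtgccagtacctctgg
Top2a: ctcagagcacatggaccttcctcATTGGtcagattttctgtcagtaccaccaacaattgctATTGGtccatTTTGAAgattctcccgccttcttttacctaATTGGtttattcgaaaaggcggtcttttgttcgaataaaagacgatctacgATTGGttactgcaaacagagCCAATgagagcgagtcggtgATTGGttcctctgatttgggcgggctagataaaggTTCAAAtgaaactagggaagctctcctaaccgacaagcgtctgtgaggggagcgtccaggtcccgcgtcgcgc
Cenpa: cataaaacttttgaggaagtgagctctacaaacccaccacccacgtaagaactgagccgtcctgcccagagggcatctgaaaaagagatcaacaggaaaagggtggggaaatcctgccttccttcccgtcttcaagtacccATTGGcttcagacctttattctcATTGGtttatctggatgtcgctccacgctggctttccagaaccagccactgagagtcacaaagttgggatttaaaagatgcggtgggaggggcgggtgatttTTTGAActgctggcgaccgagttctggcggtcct
Kif23: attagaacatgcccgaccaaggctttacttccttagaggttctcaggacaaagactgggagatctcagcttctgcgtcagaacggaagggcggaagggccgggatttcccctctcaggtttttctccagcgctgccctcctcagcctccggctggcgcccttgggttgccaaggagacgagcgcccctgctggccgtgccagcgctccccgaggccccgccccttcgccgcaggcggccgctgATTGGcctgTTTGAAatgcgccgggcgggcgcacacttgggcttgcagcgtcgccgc
CCAAT was found 6, 6, 2 and 1 times in Ube2c, Top2a, Cenpa and Kif23, and TTTGAA 1, 2, 1 and 1 times. Ube2c and Top2a held more CCAAT than any other member promoter, so the printed genes do not stand for their groups. At least 2 CCAAT were present in 8 of the 14 promoters of members that rose in both cohorts. Of the 14 of members that rose in neither, 7 held at least 2.

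From month 2 on the CM mice drew apart from each other. At T3 the median over members was 5.07 log2 CPM in mouse 3338 and 4.77 in mouse 3357 of the training cohort, and all 47 members lay above every Ctrl library of that month in each. The other 5 CM mice had 0.68 to 1.49 then, and Ctrl mice 0.77 to 1.63. For comparison, CM libraries of this cohort had 2 to 17 members above every Ctrl library at T0. How many of all genes lay above every Ctrl library was not counted. At T6 mice 3334, 3336 and 3341 had 5.08, 3.29 and 5.7, and mice 3368 and 3370 had 1.45 and 1.61, against 1.1 to 1.89 in Ctrl mice. Mki67 stood at 9.07, 8.43, 10.03, 6.48 and 6.71 log2 CPM in those 5 CM mice at T6.

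With such a spread, no member was called higher in CM than in Ctrl mice from T2 to T6 (limma). In the training cohort 13, 3, 14, 27 and 33 members were higher at an unadjusted p under 0.05 in these 5 months. Over all genes 5076, 2793, 1030, 1583 and 1661 of 18508 passed it, in both directions together. After adjustment voom called 0 members higher, and limma called 5.46%, 0.313%, 0.0054%, 0% and 0.0162% of all genes higher. Cenpa fell at T2 by 0.44, where 6.25% of all genes were called lower. The median fold change over members was 0.55, 0.76, 1.0, 1.07 and 1.84 (0.32 at T2 without CM mouse 3357, 0.45 at T3 without CM mouse 3338), and at T6 all 47 were positive, with Cdk1 at 3.66, Kif18b at 3.3 and Ccnb1 at 3.12. With the mouse as a replicate block over all months, 37 members were called at T6, against 16.1% of all genes in that fit, and 36 with the library group added, against 12.2%. There were 9 at T4 (1.69% of all genes) and 1 at T3 (0.973%), and 0 in both months with the library group. Without a sex term 4 were called at T2, against 6.3% of all genes in that fit. Leaving out Ctrl mouse 3335 gave 7 at T5, and leaving out CM mouse 3341 or 3336 gave 3 and CM mouse 3357 gave 1 at T2. Over all genes these 4 fits called 296, 2192, 2211 and 1768, in both directions together.

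The validation cohort gave 34, 31, 0, 12 and 1 members higher at an unadjusted p under 0.05 from T2 to T6. Over all genes 1374, 2224, 369, 1169 and 469 of 13607 passed it, in both directions together. After adjustment limma and voom called 0 members in each month. Limma called 0.147%, 0%, 0%, 0% and 0% of all genes higher. The median fold change over members was 1.56, 1.89, 0.98, 0.77 and 0.34. The last 3 moved most with 1 CM mouse each, and were 0.22 at T4 without mouse 2684, 0.34 at T5 without mouse 2718 and 0.03 at T6 without mouse 2686. At T2 the median over members per library was 5.68 log2 CPM in mouse 2731, 5.43 in mouse 2708, 4.15 in mouse 2690 and 4.1 in mouse 2719, and 1.67 to 2.86 in the other 6 CM mice, against 1.31 to 2.43 in Ctrl mice. With the replicate block, 21 members were called at T2, against 3.8% of all genes in that fit, and 38 at T3, against 7.87%. Whether T1 differed more than T2 between the arms was compared in the training cohort. No member was called (limma), nor was any other gene (0%). At an unadjusted p under 0.05, 6 members were larger in CM mice, and 1005 of 18508 genes differed in either direction.

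In the last library (months 4 to 10) of 6 of the 7 training CM mice, 44 to 47 mitosis genes stood above every CM T0 library. In that of mouse 3368, 22 did. How many of all genes stood above every CM T0 library was not counted. Against own T0, 43 of 47 members rose and none fell (limma), against 10.1% of all genes called higher and 6639 of 18508 called lower. The median fold change was 3.58 over members and -0.57 over all genes. All 47 were higher on average, 29 of them in every mouse and 17 in all but 1. The median over members per library was 1.1, 4.86 and 5.7 log2 CPM (lowest, median, highest) in the last and 0.55, 1.0 and 1.25 in the T0 libraries. The lowest is that of mouse 3368, without which 47 members were called.

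Leukemia libraries of the validation cohort gave a similar count. Against own T0, 43 members rose and none fell (limma), against 31.4% of all genes called higher and 4494 of 13607 called lower. Of the 26 members that pass on Ctrl libraries alone 23 rose. The median fold change was 2.72 over members, 1.98 over those 26 and -0.04 over all genes. L and T0 libraries were separate run batches. Without the mice whose T0 or L library went against the sex label, 2718 and 2731, 45 members were called. The median over members per library was 2.07, 4.87 and 6.34 log2 CPM in L and 1.71, 1.88 and 2.54 in T0 libraries of the same 6 mice. The lowest is that of mouse 2718, without which 46 members were called. The lists of 43 shared 41 genes, which is 95.3% of each, and among the 26 members they shared 21, which is 95.5% and 91.3%.

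Every role took part, in different measure. In the validation cohort all entry genes but Ccna2 and all kinase and survivin genes but Aurkb had passed the filter through CM libraries. So had Bub1 and Ttk of the checkpoint, and the L counts and medians per role are tied to that filter. In mitotic entry all 6 genes rose in both cohorts, with a median fold change of 3.87 in last and 3.48 in L libraries. All 6 genes of kinases and survivin rose (3.25 and 2.63), as did all 4 checkpoint genes (3.83 and 2.74) and all 3 of anaphase (3.43 and 1.67). The 3 genes of cytokinesis also rose (2.54 and 1.96), and so did the 3 of chromosome structure (4.87 and 3.51). Of the 9 kinetochore genes 7 rose in each cohort, of the 8 kinesins 6 and 7, and of the 5 spindle assembly genes 5 and 4. Bub1 led the training cohort, at 5.92 ± 0.73 (adjusted p = 0.000137, limma), followed by Hmmr at 5.4 and Esco2 at 5.36. In L libraries Kif18b had 4.74 ± 0.62 (adjusted p = 0.000271), Cdk1 4.67 and Bub1 4.5, and these 3 passed the filter through CM libraries. Among the 26 members Esco2 led there, at 4.22, followed by Kif11 at 4.17 and Ccna2 at 3.7.

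Several genes that had not risen at month 1 rose here. Of the 18 members higher at month 1 in neither cohort, 13 rose in both the last and the L libraries. Among these 13, Aurka, Ccnb1, Cdk1, Cenpi, Foxm1 and Plk1 had passed the validation filter through CM libraries. Aurkb stood at 0.28, 4.96 and 6.01 log2 CPM in last and at 1.7, 2.25 and 2.49 in T0 libraries of the training cohort (log2 fold change 2.17 ± 0.57, adjusted p = 0.00847, limma), higher in 6 of 7 mice. In L libraries Aurkb stood at 1.57, 4.67 and 5.89, against 1.89, 2.25 and 2.49 at T0 (2.0 ± 0.54, adjusted p = 0.0109), higher in 5 of 6 mice. Racgap1 stood at 3.52, 6.51 and 7.15 in last and at 4.02, 4.71 and 5.02 in T0 libraries, and rose by 1.43 ± 0.4 there and by 1.3 ± 0.28 in L libraries. For both genes all mice but 1 per cohort ended above their own T0.

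Several genes that had risen at month 1 also rose against own T0 in these libraries. Mki67 and Ccna2 were among them, and so was Bub1b, called at month 1 in the validation cohort alone. Mki67 stood at 5.73, 9.11 and 10.03 log2 CPM in last and at 3.7, 3.95 and 4.24 in T0 libraries of the training cohort, without overlap (log2 fold change 4.87 ± 0.42, adjusted p = 2.65e-05, limma). In L libraries Mki67 stood at 6.56, 8.58 and 10.23, against 4.53, 5.06 and 5.55 at T0, also without overlap (3.47 ± 0.4, adjusted p = 0.000143). Ccna2 rose by 5.21 ± 0.33 in last and by 3.7 ± 0.5 in L libraries, and Bub1b by 3.58 ± 0.35 and 1.65 ± 0.37. Against own T1, 45 members rose in last libraries (11.2% of all genes called higher) and 41 in L libraries (29.2% of all genes, and 21 of the 26 members), with medians of 2.66 and 1.88. Without mice 2690 and 2731, which leaves 4, only 16 rose in L libraries against T1, where 21.5% of all genes did.

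Ube2c and Nusap1 were not called between leukemia and T1. Ube2c stood at 0.92, 4.54 and 6.47 log2 CPM in L and at 1.52, 2.42 and 4.01 in T0 libraries (log2 fold change 1.67 ± 0.63, adjusted p = 0.0455, limma). Against own T1 its fold change in L libraries was -0.35, or 0.03 with voom, and that of Nusap1 was -0.13, or 0.02 with voom, none of them called. Nusap1 stood at 3.43, 5.91 and 7.04 in L and at 3.57, 4.13 and 6.16 in T0 libraries (1.11 ± 0.49, adjusted p = 0.0779). In last training libraries both rose against T0 without overlap, Ube2c by 3.58 ± 0.31 and Nusap1 by 2.98 ± 0.26.

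In each cohort 4 members missed the threshold. In last libraries these were Kif23, Ndc80, Cenpa and Kif20b, a kinesin of cytokinesis, and in L libraries Kif23, Ndc80, Nusap1 and Spc25. Kif23 stood at 3.15, 5.03 and 6.0 log2 CPM in last and at 4.06, 4.49 and 5.78 in T0 libraries (log2 fold change 0.46 ± 0.38), and at 4.1, 5.06 and 6.47 in L against 4.62, 4.7 and 5.3 at T0 (0.31 ± 0.33). It was higher in 5 of 7 and in 3 of 6 mice. Cenpa stood at 2.67, 6.31 and 7.53 in last and at 4.85, 5.34 and 5.48 in T0 libraries (0.68 ± 0.49, adjusted p = 0.281, limma), and rose by 1.21 ± 0.32 in L libraries (adjusted p = 0.0106).

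**Figure D3:**
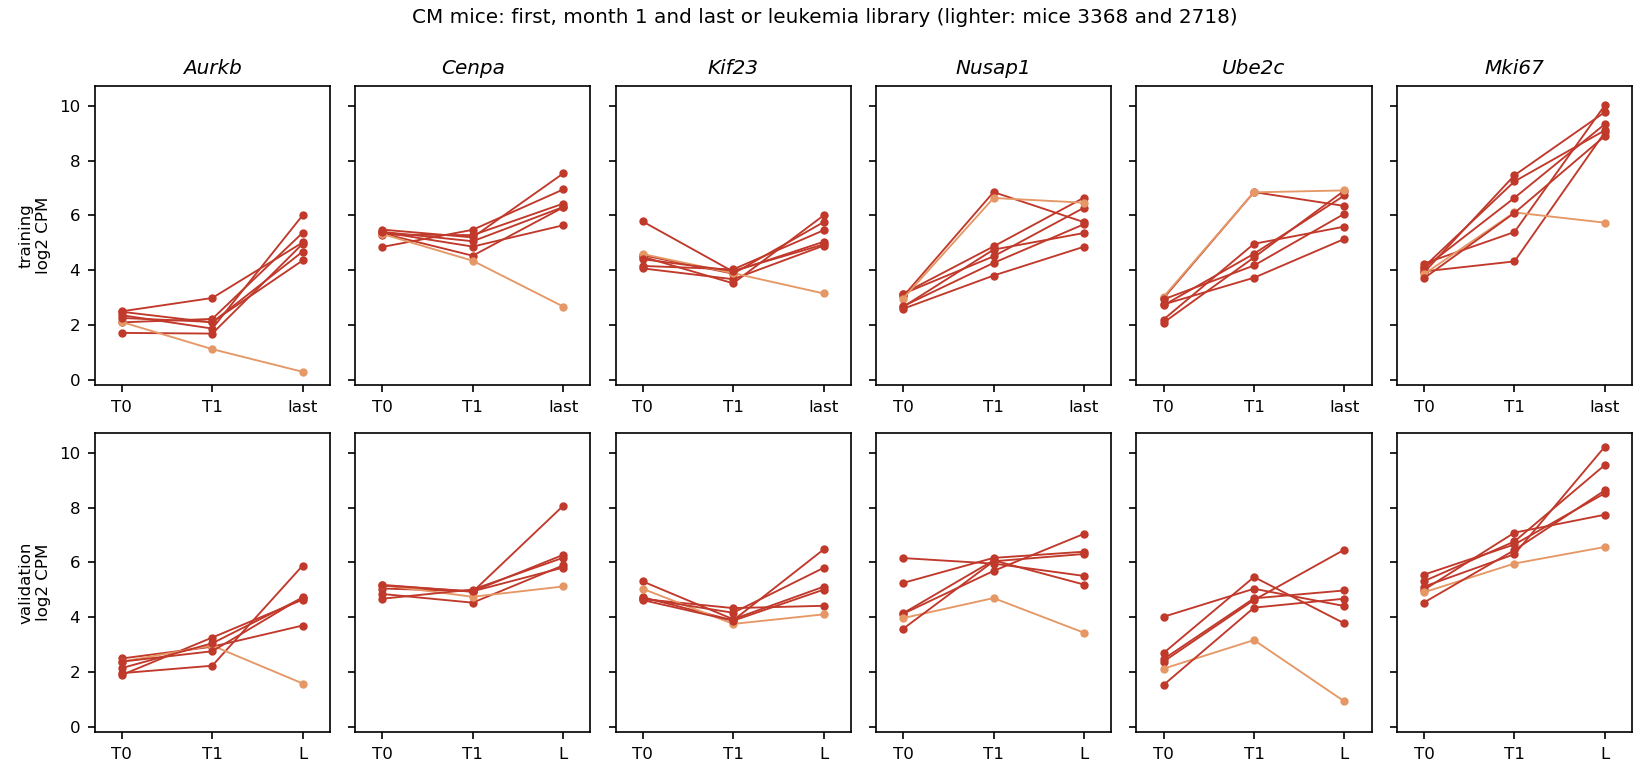
Log2 CPM (y axis) of 6 members in CM mice at T0, at T1 and in the last (training, above) or leukemia (validation, below) library, with a line per mouse and mice 3368 and 2718 in a lighter colour. Nusap1 and Ube2c are high already at T1, Aurkb turns upward after T1 in most mice, and the lighter lines end lowest for Aurkb and Cenpa.

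The 2 mice with low last values differed from each other. The last library of mouse 3368 (month 10) had Kit at 2.34 log2 CPM, Klf1 at 0.11 and 21.7% globin reads, with 22 of 47 members above every CM T0 library. Ube2c stood at 6.91 and Nusap1 at 6.46 in it, but Aurkb at 0.28 and Cenpa at 2.67 were the lowest of the 7 mice. The L library of mouse 2718 had Kit at 11.44, the highest of the 6, and also 22 members above every CM T0 library, but Ube2c at 0.92 and Nusap1 at 3.43. In the other 11 mice 42 to 47 members were above every CM T0 library of their cohort. The same share over all genes was not counted for any of these mice.

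Markers of other cells moved in these libraries too. Of 11 erythroid markers 8 rose in last libraries, and 6 rose and 2 fell in L libraries. Of the mast cell and basophil markers 6 of 8 and 6 of 7 rose, to a summed 9333 to 21680 CPM in L libraries, against 91.7 to 349.6 CPM in CM T0 libraries of that cohort. All 6 B cell and all 8 T cell markers fell in both cohorts, with B cell markers at a summed 59.7 to 314.7 CPM in L and 2458 to 5171 CPM in CM T0 libraries. Over all genes 6639 of 18508 were called lower in last and 4494 of 13607 in L libraries. Kit stood at 8.22, 10.3 and 11.44 log2 CPM in L and at 0.85, 1.37 and 1.82 in T0 libraries of the same mice. The part of these cells in the change was not tested.

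In late Ctrl libraries the mitosis genes parted into those that rose and those that fell. Against own T0, 22 members rose in Ctrl T10 libraries and 14 fell (limma), where 10.5% of all genes were called higher and 72.7% lower. The median over all genes was -1.81, and 44 of 47 members were above it, as were 11 of the 14 that fell. With median-ratio scaling, which moved the median of all genes by 1.65, 32 members were called higher and 0 lower, against 24.1% and 21.1% of all genes. All 11 erythroid markers rose in these libraries, to a summed 7189 to 59460 CPM, against 874.9 to 3500 CPM at T0, and their part in the change was not tested. Leaving globin reads out of the totals gave 25 members higher, against 12.7% of all genes, and 13 lower, with a median of -1.4 over all genes.

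The members that rose in late Ctrl blood overlapped with those that rose at month 1 in CM blood. Of the 17 members higher at month 1 in the training cohort, 15 rose in Ctrl T10 libraries (88.2%) and none fell. Of the other 30, 7 rose (23.3%) and 14 fell (46.7%). All 22 that rose in Ctrl T10 libraries were among the 29 of month 1 in the validation cohort, which is 75.9% of these, and among the 26 members 14 rose in Ctrl T10 libraries, all of them among the 15. The month 1 and T10 comparisons share no library, though Ctrl mice of the training cohort entered both. Esco2 rose by 4.43 ± 0.47 (adjusted p = 0.000448, limma), Ube2c by 4.11 ± 0.4, Nusap1 by 3.86 ± 0.42 and Ccna2 by 3.11 ± 0.39. Ube2c stood at 4.61, 6.67 and 7.62 log2 CPM in Ctrl T10 and at 1.88, 2.45 and 3.36 in Ctrl T0 libraries, without overlap.

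On the low side stood 4 of the 6 genes of kinases and survivin, Nek2, Plk1, Aurka and Aurkb, which fell by 1.94, 1.73, 1.46 and 1.29. Cenpa stood at 2.49, 3.1 and 5.54 log2 CPM in Ctrl T10 and at 5.23, 5.44 and 5.62 in Ctrl T0 libraries (log2 fold change -1.94 ± 0.37, adjusted p = 0.0014, limma), lower in all 7 mice. Kif20a, a kinesin of the central spindle, fell by 1.93, Cdc20 by 1.54, Racgap1 by 1.43 and Kif23 by 1.16. With median-ratio scaling none of the members was called lower, though 13 were with globin reads left out, so these falls depend on the scale. Under median-ratio scaling Aurkb, Kif23 and Racgap1 had 0.41, 0.54 and 0.27, so their direction depends on the scale. On the deposited scale Cenpe, Ect2 and Kif2c were near their T0 level, at -0.04, -0.06 and 0.1, above the median of -1.81 over all genes.

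**Figure D4:**
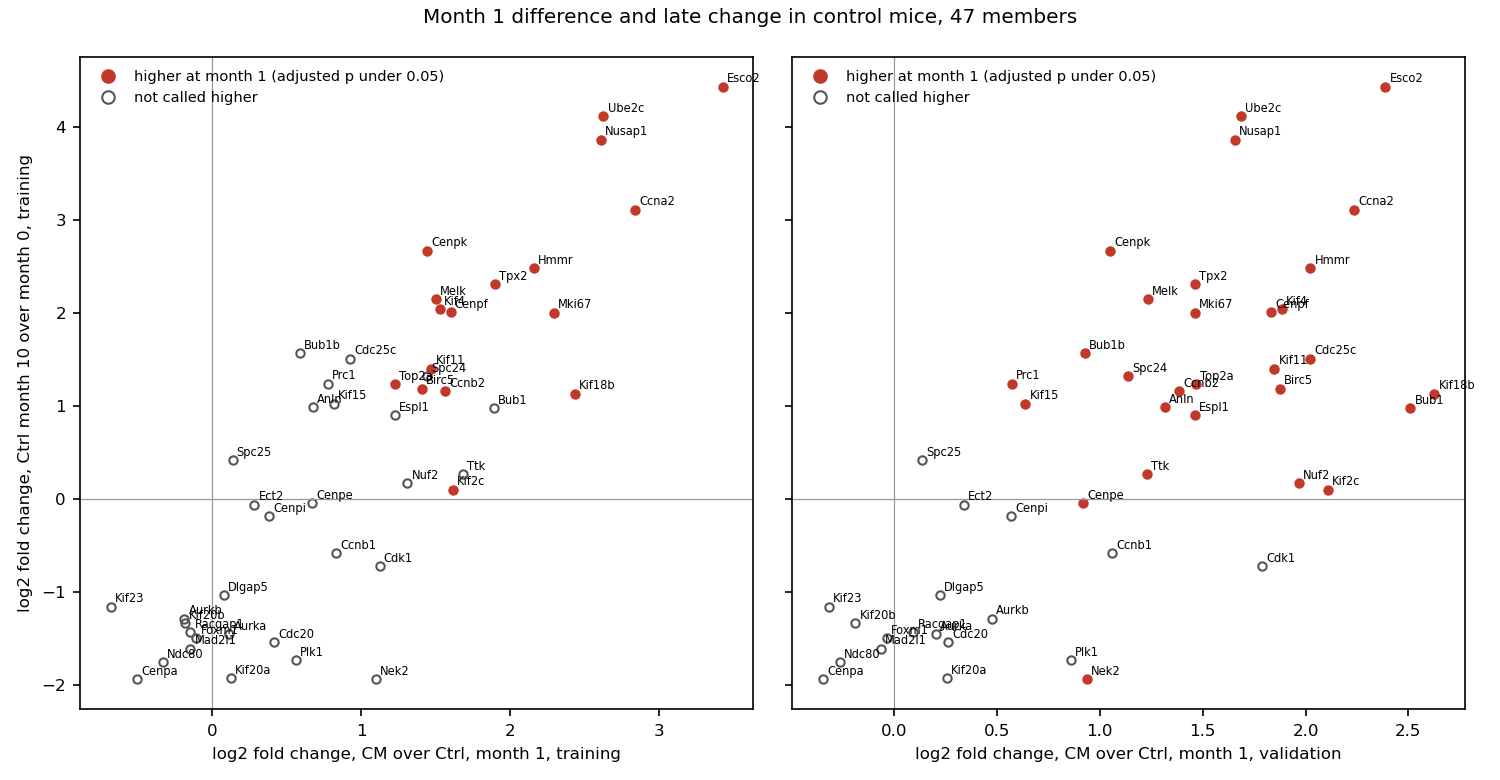
Log2 fold change of each of the 47 members in Ctrl mice at T10 over T0 (y axis) against that in CM over Ctrl mice at month 1 (x axis), for both cohorts. Esco2, Ube2c, Nusap1 and Ccna2 lie high on both axes, while Cenpa, Ndc80 and Kif23 are negative on both.

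Measured against the change of Ctrl mice up to T6, the change of CM mice up to their last library was larger for 40 members and smaller for 1 (limma), where 29.5% of all genes were called higher and 7.98% lower. Cdk1 led at 5.43, followed by Bub1 at 5.24 and by Cdc20 and Plk1 at 4.54 each. Nusap1 was the smaller change, at -1.18, and Ube2c, Cenpk and Esco2 had -0.94, 0.28 and 0.44, not called. The median was 2.53 over members and 0.61 over all genes. Against Ctrl T5 libraries, with a median of 3.56% globin reads in place of 29.9%, 42 members were called higher and none lower, where 7.68% of all genes were called higher. With median-ratio scaling against Ctrl T6, which moved the median of all genes to -0.25, 28 were called higher and 2 lower. In that fit 15.7% of all genes were called higher and 20.2% lower, and the median over members was 1.61.

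**Figure D5:**
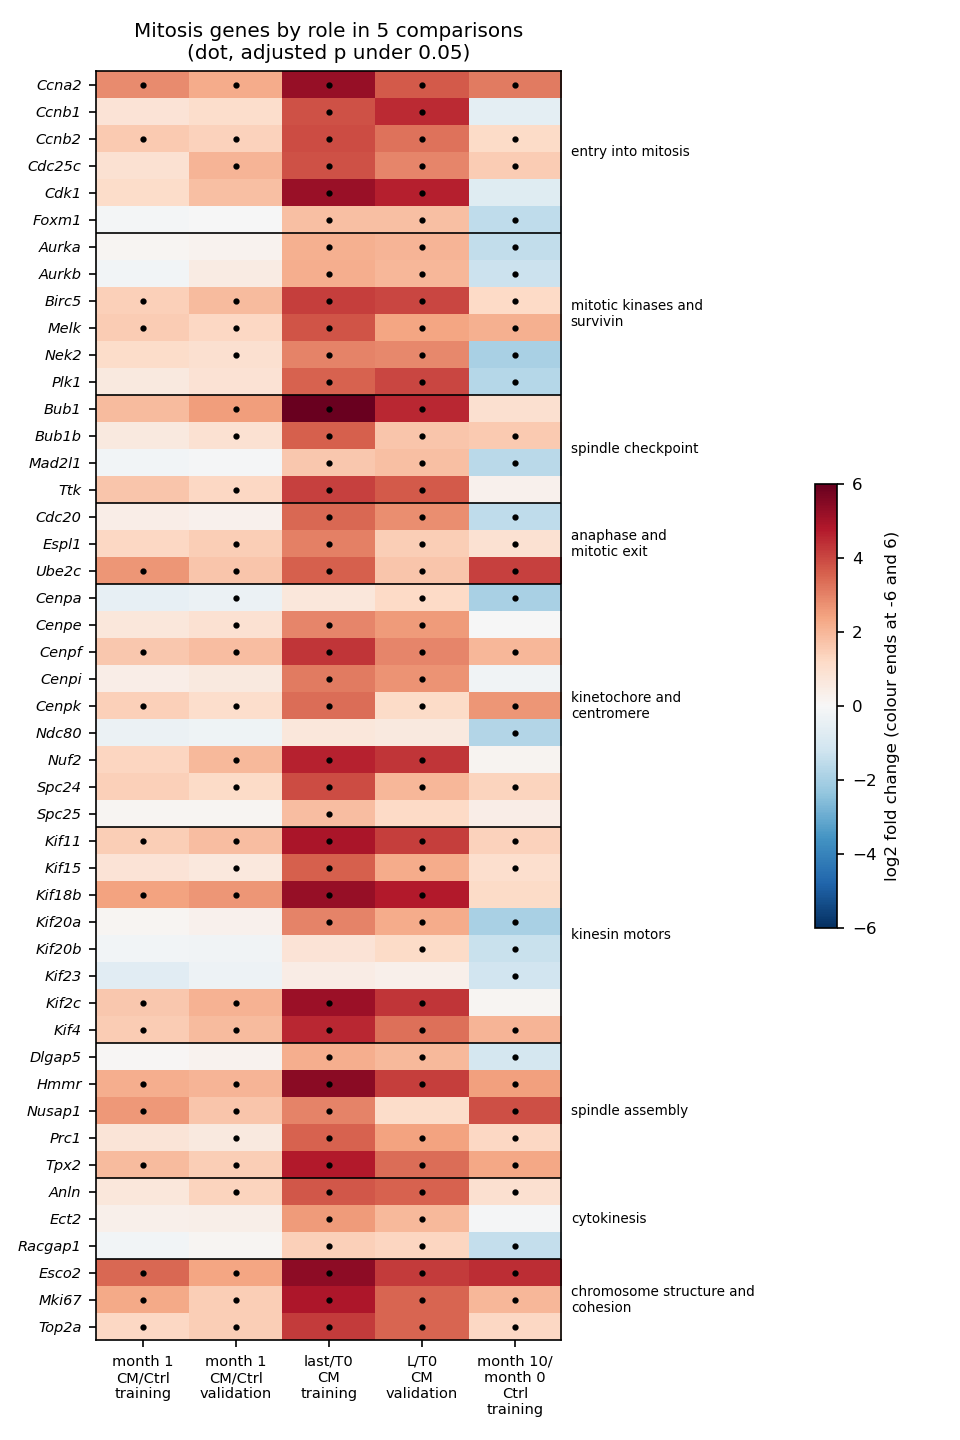
Log2 fold change of the 47 members (grouped by role, down the page) in 5 comparisons (across), red for higher and blue for lower, with a dot at an adjusted p under 0.05. The month 1 comparisons hold 17 and 30 dots, nearly every gene is red in last and leukemia libraries, and late Ctrl libraries hold both colours, with 22 genes called higher and 14 lower.

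Per length of exon, the order of the genes changed with the state of the mice. Cenpa was the most abundant member in Ctrl T0 libraries of the training cohort, at a mean of 4.11 log2 RPKM (reads per kilobase of exon, scaled to the library total), followed by Kif23 at 2.73. In last libraries Mki67 led, at a mean of 5.51 log2 RPKM, ahead of Ube2c at 4.86 and Cenpa at 4.65. In L libraries Mki67 stood at 5.21, Cenpa at 4.9 and Top2a at 4.78 log2 RPKM. Of the B-type cyclins, Ccnb2 stood at 4.48 and Ccnb1 at 0.22 log2 RPKM in last libraries.

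Other genes of the cell cycle, taken as whole lists, are given for comparison. Over all genes, 3.68% (training) and 7.95% (validation) were called higher at month 1, 10.1% in last and 31.4% in L libraries. Of 64 further mitosis genes in the training table, 7 rose at month 1 and 54 in last libraries, and none fell. Of 63 in the validation table, 27 rose at month 1, while in L libraries 54 rose and 1 fell. Of 30 DNA replication genes, which act in S phase, 2 rose at month 1 in the training cohort, whereas 6 rose and 2 fell in the validation cohort. In last libraries 19 of these rose, and in L libraries 24 rose and 1 fell. Of 15 genes for core subunits of the anaphase-promoting complex and its activator Fzr1, none rose at month 1 in either cohort. In the validation cohort 3 of these fell then, where 20.6% of all genes were called lower. In last libraries 2 of the 15 rose, and in L libraries 8 did. In Ctrl T10 libraries 24 of 30 replication genes fell and 1 rose, where 72.7% of all genes were called lower and 10.5% higher. Their median was -1.82 beside -1.81 over all genes.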

How the data were processed

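The authors deposited 1 table of log2 CPM per gene for each cohort. STAR, featureCounts of Subread, edgeR and the build GRCm38 are named in the submitters' processing notes, with versions not given in the sources used here. With a prior of 0.25 reads the values gave back whole reads for 100% of entries (tolerance 0.01 reads), so 0 reads sits at -6.52 (training) or -6.30 (validation) log2 CPM. Genes had been kept at 0.5 CPM (training) or 5 CPM (validation) in 2 samples, per the file names. By the labels, T0, T1 and L libraries of the validation cohort were unstranded and its other libraries stranded, and 18 members overlap another gene, whose reads may be counted with theirs. A gene symbol was found for the Ensembl identifiers of 87.9% (training) and 92.7% (validation) of genes.

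Fits used limma 3.58.1 in R 4.3.3 on the log2 values of all genes, with a mean-variance trend and Benjamini-Hochberg adjustment. A call is an adjusted p under 0.05. Arms were compared within a month with sex as covariate. Comparisons with own T0 or T1 had the mouse as replicate block, as both libraries come from the same animal by the labels. Changes were compared between arms on differences per mouse. Scripts were tested on simulated data. Alternatives were median-ratio scaling, voom on the recovered reads, genes with a mean above 1 log2 CPM, no sex term, the replicate block over all months, also with the library group of the titles, no block, and leaving out each mouse in turn. Chosen after seeing the data were Ctrl T5 for T6, leaving out globin reads, leaving out mice 2700 and 2731, and leaving out the validation libraries that go against their sex label.

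Named were the member of each role with the highest mean level, up to 3 members with the largest and 3 with the smallest change per comparison, called members against the majority, Kit and Klf1. Other genes were named after their values were seen. The members, roles and lists were chosen with earlier results of these data known. Python 3.11.15 drew the figures with matplotlib 3.10.9.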

Additional observations from a re-analysis of the deposited data

Results flagged for a closer look

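The median over members in the last training libraries had 1 value far below the others, 1.1 log2 CPM in mouse 3368, against 4.22 to 5.7 in the other 6 mice. At month 1 the lowest Bub1b value of the 7 Ctrl mice of the training cohort, 2.62 log2 CPM, lay apart from the rest, and so did the lowest Cenpa value of the 6 Ctrl mice of the validation cohort, 4.69 log2 CPM. These are 3 of 79 groups examined, and chance picks out about 1 in 20.

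The change over time differed between CM and Ctrl mice for 41 members up to the last training library, for 6 members from T0 to T1 in the training cohort and for 24 members from T0 to T1 in the validation cohort, or 7 without the libraries against their sex label (limma on differences per mouse, adjusted p under 0.05).

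Weekly libraries of the validation cohort, with 1 or 2 CM mice and at most 1 Ctrl mouse per week, entered no comparison. The median over the 47 members was 3.3, 5.15 and 4.62 log2 CPM in CM mouse 3200 at weeks 10, 14 and 18, against 1.43, 1.41 and 1.54 in the Ctrl libraries of these weeks. CM mouse 3130 had 4.31 and 5.26 at weeks 20 and 24, against 1.42 and 1.44 in Ctrl libraries. CM mouse 3131 had 2.65, 5.53 and 5.79 at weeks 20, 24 and 28, against 1.42, 1.44 and 1.62 in Ctrl libraries. At week 25, with no Ctrl library, CM mouse 3130 had 3.12, below its value of week 24.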

How the results depend on the processing

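Of the counts of called members under other settings, 283 stayed within 1.5 times the reported count and 29 did not. The 283 include counts of 0 that stayed 0, as in most fits of the arms at T0 and from T2 to T6. They therefore do not measure how steady the counts above 0 are. Of the values of single genes 342 kept their direction and side of the threshold, 10 passed and 10 no longer passed the threshold and 7 changed direction. With the replicate block over all months, members called higher in CM than in Ctrl mice numbered 7 at T1, 1 at T3, 9 at T4 and 37 at T6 of the training cohort and 7 at T1, 21 at T2 and 38 at T3 of the validation cohort; with the library group added they numbered 5 at T1 and 36 at T6 of the training cohort. Genes with a mean above 1 log2 CPM only, where fewer members are tested, gave 1 at T2, 25 in last libraries against T0, 27 against T1 and 26 for the change to the last library. Of all genes in these training fits 6.04%, 9.2%, 12.5% and 44.1% were called higher. Without the sex term 4 were called at T2 of the training cohort, against 6.3% of all genes. Median-ratio scaling gave 0 higher in validation Ctrl T1 against own T0 (0 also with no replicate block), 0 lower in Ctrl T10 against own T0 and 3 for the training change from T0 to T1; it moved the median of all genes by 0.2 at T1, 0.45 in last libraries and 1.65 in Ctrl T10 libraries. Under it Aurkb had 0.0209 and Racgap1 0.0603 at T1 of the training cohort, and Aurkb 0.41, Kif23 0.54 and Racgap1 0.27 in Ctrl T10 libraries, while voom gave Ube2c 0.0273 and Nusap1 0.0217 in L against own T1. The cause of these shifts was not tested. Leaving out each mouse in turn gave 7 to 23 members at T1, 0 to 3 at T2 and 0 to 7 at T5 of the training cohort, 22 to 33 at T1 of the validation cohort, 41 to 47 in last and 40 to 46 in L libraries, and 0 at every other month fitted. Without mice 2700 and 2731, 28 members rose and 1 fell at T1 of the validation cohort. Without the libraries against their sex label 16 members rose in L against own T1, 7 had a larger change from T0 to T1 in CM mice and 0 rose in Ctrl T1 against own T0 of that cohort, with fewer mice in each fit. Low members rest on few reads, and their fold changes depend on the prior of 0.25 reads.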
